A study of Homo sapiens with 60 samples.

Results

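Autophagy and lysosome genes were followed as a set of 33 genes in HT29 cells, an established human colorectal adenocarcinoma line, after treatment with 8 digestive herbal extracts. The members were chosen by name, and each of the 33 symbols matched 1 of the 60675 genes of the deposited table. They comprise 14 autophagy factors, 2 transcription factors (TFEB and TFE3), 4 lysosomal membrane proteins and 13 lysosomal enzymes and lumenal proteins. All 33 passed the low-count filter that left 16763 genes for testing.

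In autophagy, a double membrane grows around cytosolic cargo, closes into an autophagosome and fuses with a lysosome, where acid hydrolases degrade the contents. The ULK1 kinase complex and the BECN1 lipid kinase complex start the membrane, the ATG5-ATG16L1 machinery attaches LC3 and GABARAP proteins to it, and receptors such as SQSTM1 (p62), NBR1 and OPTN tether ubiquitinated cargo to those proteins. Lysosomal hydrolases and membrane proteins are produced through the secretory pathway, and TFEB and TFE3 are transcription factors known to bind CACGTG-type elements in the promoters of many of their genes. In colon epithelium, autophagy is known for its part in the handling of bacteria and in secretory cells. RNA levels alone do not report autophagic activity.

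The series holds 60 RNA-seq libraries of total RNA from HT29 cells collected 24 h after treatment, 3 of them from vehicle (DMSO) cells. All groups share the parental cell line, and the labels name no genetic change in any. Water extracts were Sayeok-tang (3 libraries per dose) and Bojungikgi-tang (2 per dose), both multi-herb formulas. Extracts in 70% ethanol were fresh ginger (Zingiberis Rhizoma Recens), dried ginger (Zingiberis Rhizoma), Pinelliae Tuber and Scutellariae Radix (3 libraries per dose each), and Coptidis Rhizoma and Zizyphi Fructus (1 per dose each). High, medium and low doses were 500, 100 and 20 µg/mL, except for Coptidis Rhizoma, which was given at 320, 64 and 12.8 µg/mL. The sample labels give the vehicle as 0.1% DMSO, whereas the series text gives 2%. The labels do not say whether replicates were separate cultures, so the p-values measure only the spread between these libraries.

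Library sizes were 18.02 to 35.82 M counts, with a median of 24.46 M counts. HT29 identity was checked on 12 colon epithelial markers, of which 10 were above 1 CPM (counts scaled to library size) in every library, and on 16 markers of other cell types, of which 10 were below 1 CPM in every library. Of those 16, CD14 and LYZ stayed above 1 CPM throughout. At 10 median absolute deviations, 3 of the 54 libraries of replicated groups stood apart by the share of counts in ribosomal protein or mitochondrial genes: vehicle 1 (7.20% ribosomal protein), Scutellariae Radix low 3 (9.35% ribosomal protein) and Pinelliae Tuber high 2 (14.3% mitochondrial). The single low-dose Coptidis Rhizoma library (15.2% mitochondrial) also passed this threshold and entered no test. The high-dose Coptidis Rhizoma library lay just under it, at 9.98 median absolute deviations for the mitochondrial and 9.62 for the ribosomal protein share. Over the 33 members, Pinelliae Tuber high 2 lay 0.443 log2 units (root mean square) from the other libraries of its group and Scutellariae Radix low 3 lay 0.349, against a median of 0.0909 over the 54 replicated libraries. Counts of called members are therefore given with all libraries and again without these 3. Vehicle libraries carry their own first number in the sample codes, as do the water extracts, the gingers, the pair of Pinelliae Tuber and Scutellariae Radix, and the pair of Coptidis Rhizoma and Zizyphi Fructus. An extract-against-vehicle difference and a code-set difference therefore cannot be told apart, whereas high against low dose, and the extracts within each pair, were compared inside a code set.

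The resting levels of the members spanned more than 2 orders of magnitude per unit of transcript length. On the scale of CPM per kilobase of exon, which allows levels to be compared between genes, CTSD (cathepsin D, an aspartic protease) was highest in vehicle at 235 ± 16.8 (SD, n = 3). PSAP, the precursor of the saposins that assist sphingolipid breakdown, followed at 175.5 ± 10.4, and CTSZ (cathepsin Z) at 144 ± 0.886. GRN (progranulin) and LAMP1, a heavily glycosylated lysosomal membrane protein, stood at 79.8 ± 2.66 and 73.3 ± 1.49 and differed by more than their spread. SQSTM1 was the highest autophagy factor at 52.1 ± 3.93. The next, GABARAP at 41.4 ± 4.23, did not differ from CTSA (37.8 ± 2.01) beyond its spread.

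The lower end held WIPI1 (1.80 ± 0.211), GABARAPL1 (1.62 ± 0.11) and CTSL (1.47 ± 0.298), which did not differ beyond their spread, and GAA, the glycogen-degrading acid alpha-glucosidase, at 0.840 ± 0.0307. The median level per kilobase in vehicle was 15.8 for the 13 enzymes and lumenal proteins, 11.0 for the 4 membrane proteins, 9.17 for the 14 autophagy factors and 8.81 for the 2 transcription factors. Lysosomal transcripts thus held the top 5 places, while both classes reached down to the lowest levels.

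Promoter sequence was examined because TFEB and TFE3 are members themselves. RefSeq promoters (GRCh38.p14, 250 bases before to 50 bases after the start) matched 29 of the 33 members. HEXA, PSAP, CTSB and LAMP2 were not matched. The sequence CACGTG, which reads the same on both strands, was found in 6 members, namely CTSA, CTSD, GAA, LAMP1, MCOLN1 and NEU1, and in 7.23% of all 34943 promoters of this length. None of the 14 autophagy factors held it. The longer TCACGTGA, which contains it, was found in 4 members (CTSA, GAA, LAMP1 and MCOLN1; 0.979% of all promoters). The sequences below are shown because they set these 6 lysosomal genes apart by a shared element, in capitals, that the expression values can be read against. GABARAPL1 is added as the autophagy factor with TGACGTCA (capitals), a sequence found in 1.84% of all promoters. Sequences run 5′ to 3′ on the gene's strand, at chr17:80101471-80101580 (GAA, plus strand), chr19:7522514-7522623 (MCOLN1, plus), chr13:113297029-113297248 (LAMP1, plus), chr20:45891225-45891334 (CTSA, plus), chr11:1763928-1764037 (CTSD, minus), chr6:31862862-31862971 (NEU1, minus) and chr12:10212767-10212876 (GABARAPL1, plus).
GAA: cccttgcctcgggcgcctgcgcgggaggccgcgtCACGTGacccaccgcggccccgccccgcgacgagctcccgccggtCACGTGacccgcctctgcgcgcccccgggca
MCOLN1: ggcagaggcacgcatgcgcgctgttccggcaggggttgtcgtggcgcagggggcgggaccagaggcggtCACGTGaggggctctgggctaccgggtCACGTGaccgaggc
LAMP1: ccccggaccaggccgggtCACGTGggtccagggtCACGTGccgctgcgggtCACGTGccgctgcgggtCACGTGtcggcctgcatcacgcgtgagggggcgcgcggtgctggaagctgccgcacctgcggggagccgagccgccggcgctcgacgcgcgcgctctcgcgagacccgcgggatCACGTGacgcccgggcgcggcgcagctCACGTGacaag
CTSA: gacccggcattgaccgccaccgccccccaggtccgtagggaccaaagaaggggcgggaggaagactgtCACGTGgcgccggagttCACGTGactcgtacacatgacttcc
CTSD: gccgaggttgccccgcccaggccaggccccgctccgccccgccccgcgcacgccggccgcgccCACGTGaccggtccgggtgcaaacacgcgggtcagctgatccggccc
NEU1: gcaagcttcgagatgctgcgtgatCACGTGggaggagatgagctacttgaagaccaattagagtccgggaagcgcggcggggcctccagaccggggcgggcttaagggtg
GABARAPL1: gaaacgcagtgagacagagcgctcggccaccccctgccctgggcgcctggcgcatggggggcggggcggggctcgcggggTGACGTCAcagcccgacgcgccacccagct

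A match of letters is a description and not a bound site. LAMP1 held CACGTG 6 times in the stretch shown, and GAA, MCOLN1 and CTSA held it 2 times each. These 6 genes were not called in a common direction. At the high dose of Scutellariae Radix, NEU1 rose, CTSA and GAA fell, and CTSD, LAMP1 and MCOLN1 were not called. The CTSA call was lost without vehicle 1 (edgeR adjusted p = 0.0566), and CTSA lay below the vehicle mean in all 24 other groups. That of GAA was lost without vehicle 1, Scutellariae Radix high 2 or high 3 (edgeR adjusted p up to 0.113). TGACNNNGC, another pattern searched on both strands, was found in 10 members and in 13.3% of all promoters.

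Across the 6 replicated extracts, members were called mainly at the high dose, and mainly with Scutellariae Radix and dried ginger. A member was called when its adjusted p from edgeR's quasi-likelihood test, with Benjamini-Hochberg adjustment over 16763 genes, was below 0.05. Among 198 member values per dose, 37 were called against vehicle at the high dose, 7 at the medium dose and 2 at the low dose. Among all genes tested, the share called did not follow dose in every extract. In either direction, Sayeok-tang had 3.3% called at the low and 0.793% at the medium dose. Bojungikgi-tang had 1.49% at the medium and 0.626% at the high dose. High-dose Scutellariae Radix (11.5% higher, 12.1% lower) and dried ginger (6.79% and 6.34%) had the largest shares called. In either direction, shares were 0.793% to 9.53% at the medium doses and 0.382% to 3.3% at the low doses. In all, 20 of the 33 members were called against vehicle at least once, and 7 were called in none of the 30 comparisons made: GABARAPL2, ATG5, ATG7, ATG9A, ATG16L1, LAMP1 and MCOLN1. The heat map of group means places most of the change in a few rows and columns.

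**Figure D1:**
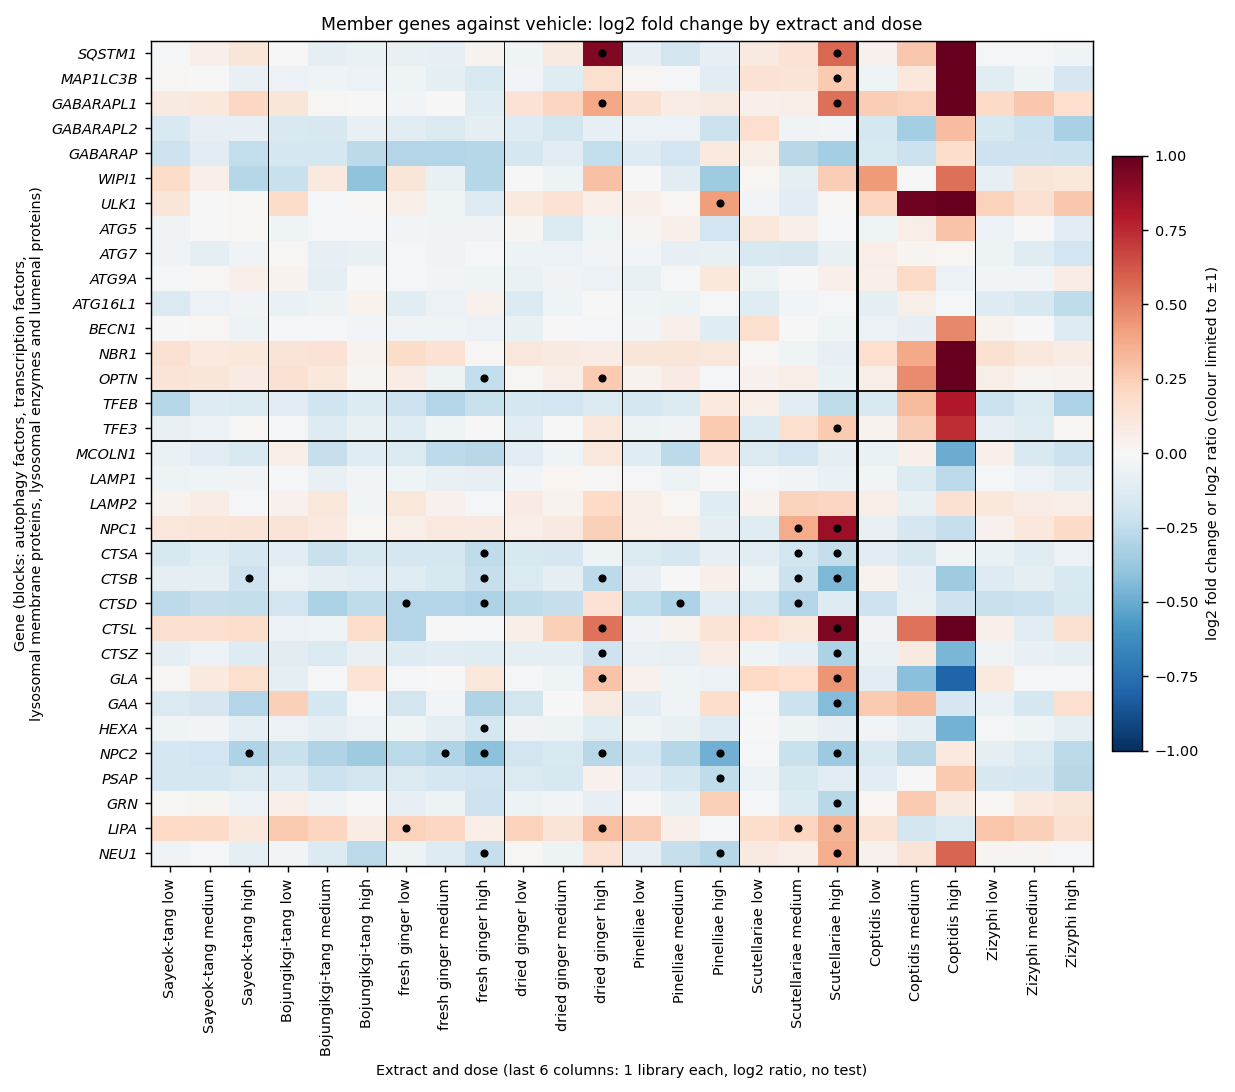
Log2 fold change against vehicle (colour, limited to ±1) for the 33 members (rows, in blocks by class) in the 24 extract and dose groups (columns), with dots on called values. The last 6 columns are single libraries with log2 ratios and no test. SQSTM1 in high-dose dried ginger, NPC1 in high-dose Scutellariae Radix and the autophagy factors of high-dose Coptidis Rhizoma stand out, while most other cells lie near 0.

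With Scutellariae Radix at the high dose, 9 members rose (beside 11.5% of all genes tested) and 6 fell (beside 12.1%). Without the 3 libraries that stood apart, 11 rose and 8 fell, beside 2727 and 2444 of 16697 genes (1920 and 2035 of 16763 with all libraries). The 9 were NPC1, SQSTM1, CTSL, GABARAPL1, GLA, NEU1, LIPA, MAP1LC3B and TFE3, and the 6 were CTSB, CTSZ, NPC2, CTSA, GAA and GRN. The median log2 fold change over all members was −0.04, beside −0.02 over all genes tested. Of the 13 enzymes and lumenal proteins, 4 rose and 6 fell.

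With dried ginger at the high dose, 6 members rose (beside 6.79% of all genes) and 3 fell (beside 6.34%). These were SQSTM1, LIPA, GABARAPL1, OPTN, GLA and CTSL upward, and CTSB, NPC2 and CTSZ downward. Leaving out vehicle 1, Pinelliae Tuber high 2 and Scutellariae Radix low 3 together gave 13 higher and 3 lower. Among all genes, 2022 of 16697 were then higher and 1487 lower, against 1138 and 1062 of 16763 with all libraries. Leaving out dried ginger high 2 or high 3 gave 5 calls. The members' median was 0.07, beside −0.01 over all genes.

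Fresh ginger at the high dose gave 7 lower members (beside 3.36% of all genes) and none higher (beside 2.99%). All but OPTN were enzymes or lumenal proteins: NPC2, CTSB, CTSA, HEXA, CTSD and NEU1. Without the 3 libraries, 9 were lower and 1 higher, beside 1023 and 1412 of 16697 genes. The members' median was −0.12, beside −0.01 over all genes. Leaving out vehicle 1 alone left 1 call, vehicle 2 left 4, fresh ginger high 2 left 3 and high 3 left 2.

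Pinelliae Tuber at the high dose gave 1 higher member, ULK1 (beside 2.21% of all genes), and 3 lower, NPC2, NEU1 and PSAP (beside 2.88%). Leaving out its library 2 and the other libraries that stood apart took ULK1 from 0.42 to 0.08 and PSAP from −0.25 to −0.07, and neither was then called. In that fit 1 member was higher and 4 were lower, beside 983 and 564 of 16697 genes. A fit with only Pinelliae Tuber high and vehicle called no member, beside 0 of 15212 genes. Sayeok-tang at the high dose gave 2 lower members, CTSB and NPC2 (beside 1.58% of all genes), and none higher (beside 1.26%). Without the 3 libraries these counts were 3 and 2, beside 564 lower and 804 higher of 16697 genes. Bojungikgi-tang at the high dose gave no call (beside 0.626% of all genes in either direction). At an unadjusted p below 0.05, 6 members passed there, and DESeq2 called 1. Without the 3 libraries, 3 were called as lower, beside 141 of 16697 genes.

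Medium doses gave 5 calls with Scutellariae Radix (beside 9.53% of all genes), 1 with fresh ginger (2.16%) and 1 with Pinelliae Tuber (2.11%). No member was called at the medium dose of Sayeok-tang (0.793%), Bojungikgi-tang (1.49%) or dried ginger (1.06%). At the low doses, LIPA rose and CTSD fell with fresh ginger (3.1%). The other low doses gave none, beside 3.3% of all genes for Sayeok-tang, 0.424% for Bojungikgi-tang, 1.99% for dried ginger, 0.543% for Pinelliae Tuber and 0.382% for Scutellariae Radix. In the 8 medium and low comparisons without a call by edgeR, between 3 and 8 members had an unadjusted p below 0.05. DESeq2 called 16 values over the 6 medium doses and 10 over the 6 low doses. Among all genes, DESeq2 called 254 to 1930 at each medium dose and 159 to 1294 at each low dose. Without the 3 libraries that stood apart, 22 values were called at the medium doses and 11 at the low doses. More of all genes were then called too. Each medium dose had 554 to 3020 of 16697 genes called, against 133 to 1598 of 16763 with all libraries. Each low dose had 444 to 2026, against 64 to 554.

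Because vehicle stands in every one of these comparisons, its own position was examined. For 13 members the vehicle mean lay above at least 20 of the 24 other group means, and for 4 members (GABARAPL1, NBR1, OPTN and LIPA) it lay below at least 20. CTSA and HEXA were highest in vehicle of all 25 groups. NPC2 and CTSD were lower than vehicle in 23 of 24 groups, and CTSB and CTSZ in 22. Over the 18 replicated comparisons with vehicle, which share the same 3 vehicle libraries, NPC2 was called lower in 6 and CTSB in 5. CTSD was called lower in 4, CTSA in 3, CTSZ in 2 and HEXA in 1. High and low dose of each extract are also compared below.

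SQSTM1 encodes p62, a receptor that binds ubiquitinated cargo and LC3, and it gave the largest replicated change of any autophagy factor. The gene lies at chr5:179806398-179838078 on the plus strand (GRCh38, GENCODE 29). In vehicle its level was 433, 375 and 389 CPM. High-dose dried ginger gave 803, 757 and 713 CPM, and the medium dose 414, 406 and 453 CPM. All high-dose libraries lay far above every vehicle, medium-dose and low-dose library, and the medium dose overlapped vehicle.

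The log2 fold change of SQSTM1 with high-dose dried ginger was 0.93 ± 0.07 (SE) against vehicle (1.90-fold, edgeR adjusted p = 8.14e-13) and 0.97 ± 0.07 against its own low dose (edgeR adjusted p = 2.77e-13). Scutellariae Radix gave 584, 600.5 and 591 CPM at the high dose and 387, 380.3 and 504 CPM at the low dose. The 504 CPM belongs to the low-dose library that stood apart. Against vehicle the change was 0.57 ± 0.07 (1.48-fold, edgeR adjusted p = 7.98e-08), and against low dose 0.48 ± 0.07, or 0.62 without the libraries that stood apart. Fresh ginger at the high dose, with 414, 428 and 381 CPM, overlapped vehicle, and its change of 0.03 ± 0.07 was not called.

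OPTN (optineurin), a receptor for ubiquitinated bacteria and mitochondria, moved in opposite directions with the gingers. Vehicle libraries held 22.0, 21.8 and 19.7 CPM. Fresh ginger at the high dose held 16.4, 17 and 20.1 CPM and at the low dose 21.5, 21.9 and 23.3 CPM. Dried ginger at the high dose held 23.7, 26.7 and 25.7 CPM, above all vehicle libraries, whereas the highest fresh ginger library overlapped vehicle.

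Against vehicle OPTN fell by 0.25 ± 0.07 with fresh ginger (edgeR adjusted p = 0.0288) and rose by 0.26 ± 0.07 with dried ginger (edgeR adjusted p = 0.00858). Against the low dose of the same extract it changed by −0.32 ± 0.07 and 0.25 ± 0.07. Each of these 4 calls was lost when 1 of 2 to 4 of its libraries was left out, among them vehicle 1 for fresh ginger, vehicle 3 for dried ginger, fresh ginger high 2 and dried ginger high 2, with edgeR adjusted p up to 0.199. NBR1, a related receptor, was called only in Scutellariae Radix against Pinelliae Tuber at the high dose, at −0.20 ± 0.06 (edgeR adjusted p = 0.0161), with 93.9, 94.6 and 96.9 CPM against 114, 97.9 and 115 CPM. Vehicle held 94.9, 102 and 105 CPM, and the Scutellariae Radix libraries overlapped vehicle.

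Among the LC3 and GABARAP proteins, which coat the autophagosome membrane, GABARAPL1 rose in the same 2 extracts as SQSTM1. Its level was 6.28, 7.13 and 6.46 CPM in vehicle and 8.63, 8.94 and 8.56 CPM with high-dose dried ginger. High-dose Scutellariae Radix gave 10.2, 9.21 and 9.91 CPM, and its low dose 6.75, 7.58 and 6.26 CPM. Neither high-dose group overlapped vehicle.

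The log2 fold change of GABARAPL1 against vehicle was 0.55 ± 0.10 with Scutellariae Radix (edgeR adjusted p = 4.02e-05) and 0.39 ± 0.10 with dried ginger (edgeR adjusted p = 0.00686). Scutellariae Radix also differed between high and low dose, at 0.50 ± 0.10. MAP1LC3B, the LC3 protein most used as an autophagosome marker, was 53.3, 49.3 and 49.7 CPM in vehicle and 59.4, 61.0 and 62.1 CPM with high-dose Scutellariae Radix, with no overlap. Its rise of 0.26 ± 0.07 against vehicle was called (edgeR adjusted p = 0.00484), and its 0.12 against the low dose was not (0.21 and called without the libraries that stood apart). GABARAPL2, the remaining close relative, was called nowhere.

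GABARAP itself showed how a single library can set a call. In Scutellariae Radix low it was 76.2, 82.5 and 135 CPM, and in Pinelliae Tuber high 74.1, 145 and 81.6 CPM. The 135 and 145 CPM belong to libraries that stood apart, and the remaining libraries of these groups lay between 74.1 and 82.5 CPM. With all libraries GABARAP was called lower with high-dose Scutellariae Radix against its low dose (−0.40 ± 0.15) and against Pinelliae Tuber (−0.44 ± 0.15). Without those libraries the values were −0.10 and −0.07, and neither was called.

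Genes that start and extend the autophagosome membrane were rarely called against vehicle, where ULK1 gave the only call. ULK1, the initiating kinase, was 22.4, 23.9 and 21.9 CPM in vehicle and 23.6, 42.7 and 24.9 CPM with high-dose Pinelliae Tuber. The groups overlap, and the call there was lost without library 2, which held the 42.7 CPM, or without any 1 of the vehicle libraries (edgeR adjusted p up to 0.631). WIPI1, which binds phosphatidylinositol 3-phosphate on the forming membrane, was 4.94, 5.28 and 4.85 CPM with high-dose Sayeok-tang and 6.58, 7.59 and 6.69 CPM at the low dose, with no overlap.

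WIPI1 fell by 0.47 ± 0.11 in that comparison (edgeR adjusted p = 0.0456), the only member called between Sayeok-tang doses (beside 0.382% of all genes). Leaving out any 1 of its 6 libraries ended that call (edgeR adjusted p up to 0.338). Bojungikgi-tang had no member called between high and low dose (beside 0.0656% of all genes), with 3 at an unadjusted p below 0.05 and none by DESeq2. BECN1, the beclin of the lipid kinase complex, was called in 1 comparison, Scutellariae Radix high against low dose, at −0.20 ± 0.07 (edgeR adjusted p = 0.0261), or −0.11 without the libraries that stood apart. That call was lost without low 3, high 2 or high 3 (edgeR adjusted p up to 0.324). ATG5, ATG7, ATG9A and ATG16L1 stayed within −0.21 to 0.18 log2 units in all 30 comparisons.

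Of the 2 transcription factors, TFE3 was called and TFEB was not called against vehicle. TFE3 was 61.3, 65.1 and 64.3 CPM in vehicle, 75.2, 77.1 and 76.4 CPM with high-dose Scutellariae Radix and 62.0, 58.9 and 52.9 CPM at its low dose. The high-dose libraries lay above all of these. The change was 0.26 ± 0.09 against vehicle (edgeR adjusted p = 0.0268) and 0.40 ± 0.09 against low dose (edgeR adjusted p = 0.00104), or 0.33 without the libraries that stood apart.

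NPC1, the lysosomal membrane protein that exports cholesterol from the lumen, rose with dose in Scutellariae Radix. It lies on the minus strand at chr18:23506184-23586898 (GRCh38, GENCODE 29). Its level was 47.5, 53.9 and 56.8 CPM in vehicle. With Scutellariae Radix it was 57.1, 53.5 and 34.5 CPM at the low dose, 71.6, 66.7 and 66.8 CPM at the medium dose and 89.9, 99.0 and 97.1 CPM at the high dose. The 3 doses did not overlap one another, and the 34.5 CPM is the low-dose library that stood apart.

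Against vehicle NPC1 rose by 0.37 ± 0.09 at the medium dose (edgeR adjusted p = 0.00391) and by 0.85 ± 0.09 at the high dose (1.81-fold, edgeR adjusted p = 2.87e-10). High against low dose gave 0.97 ± 0.09, or 0.78 without the libraries that stood apart. No other extract gave a call of NPC1 against vehicle or between doses. LAMP1, LAMP2 and MCOLN1, the other 3 membrane proteins, were not called in any comparison with vehicle or between doses. LAMP1 ranged from −0.10 to 0.04 log2 units over the 30 comparisons.

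Lumenal proteins split into some that rose and some that fell under the same treatment. CTSL (cathepsin L, a cysteine protease) was 4.12, 2.72 and 3.57 CPM in vehicle and 6.44, 6.83 and 6.29 CPM with high-dose Scutellariae Radix. Its low dose gave 3.51, 3.14 and 5.01 CPM. High-dose dried ginger gave 5.20, 4.85 and 4.87 CPM, also above all vehicle libraries.

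CTSL rose by 0.93 ± 0.17 with Scutellariae Radix (1.91-fold, edgeR adjusted p = 3.6e-05) and by 0.54 ± 0.17 with dried ginger (edgeR adjusted p = 0.028). The second of these was lost when vehicle 2 or any 1 of the high-dose libraries was left out (edgeR adjusted p up to 0.189). CTSB (cathepsin B, another cysteine protease) went the other way. It was 95.5, 92.6 and 89.6 CPM in vehicle, 67.8, 68.3 and 67.8 CPM with high-dose Scutellariae Radix, 75.9, 77.0 and 78.4 CPM with dried ginger and 79.1, 81.5 and 76.5 CPM with fresh ginger. Every library of these 3 high-dose groups lay below vehicle. Across all extracts and doses, so did 47 of 57 libraries, and 22 of 24 group means lay below the vehicle mean.

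CTSB fell by 0.45 ± 0.06 with Scutellariae Radix (edgeR adjusted p = 3.89e-08), by 0.26 ± 0.06 with dried ginger, by 0.23 ± 0.06 with fresh ginger and by 0.21 ± 0.06 with Sayeok-tang. Only Scutellariae Radix also differed from its own low dose (89.5, 81.3 and 97.5 CPM), by −0.39 ± 0.06 (edgeR adjusted p = 6.78e-07). Pinelliae Tuber at the high dose, with 93.4, 97.3 and 96.4 CPM, was not called. The Sayeok-tang call was lost without vehicle 1, vehicle 2 or any high-dose library, and the fresh ginger call without vehicle 1 or high 3 (edgeR adjusted p up to 0.202 and 0.103).

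**Figure D2:**
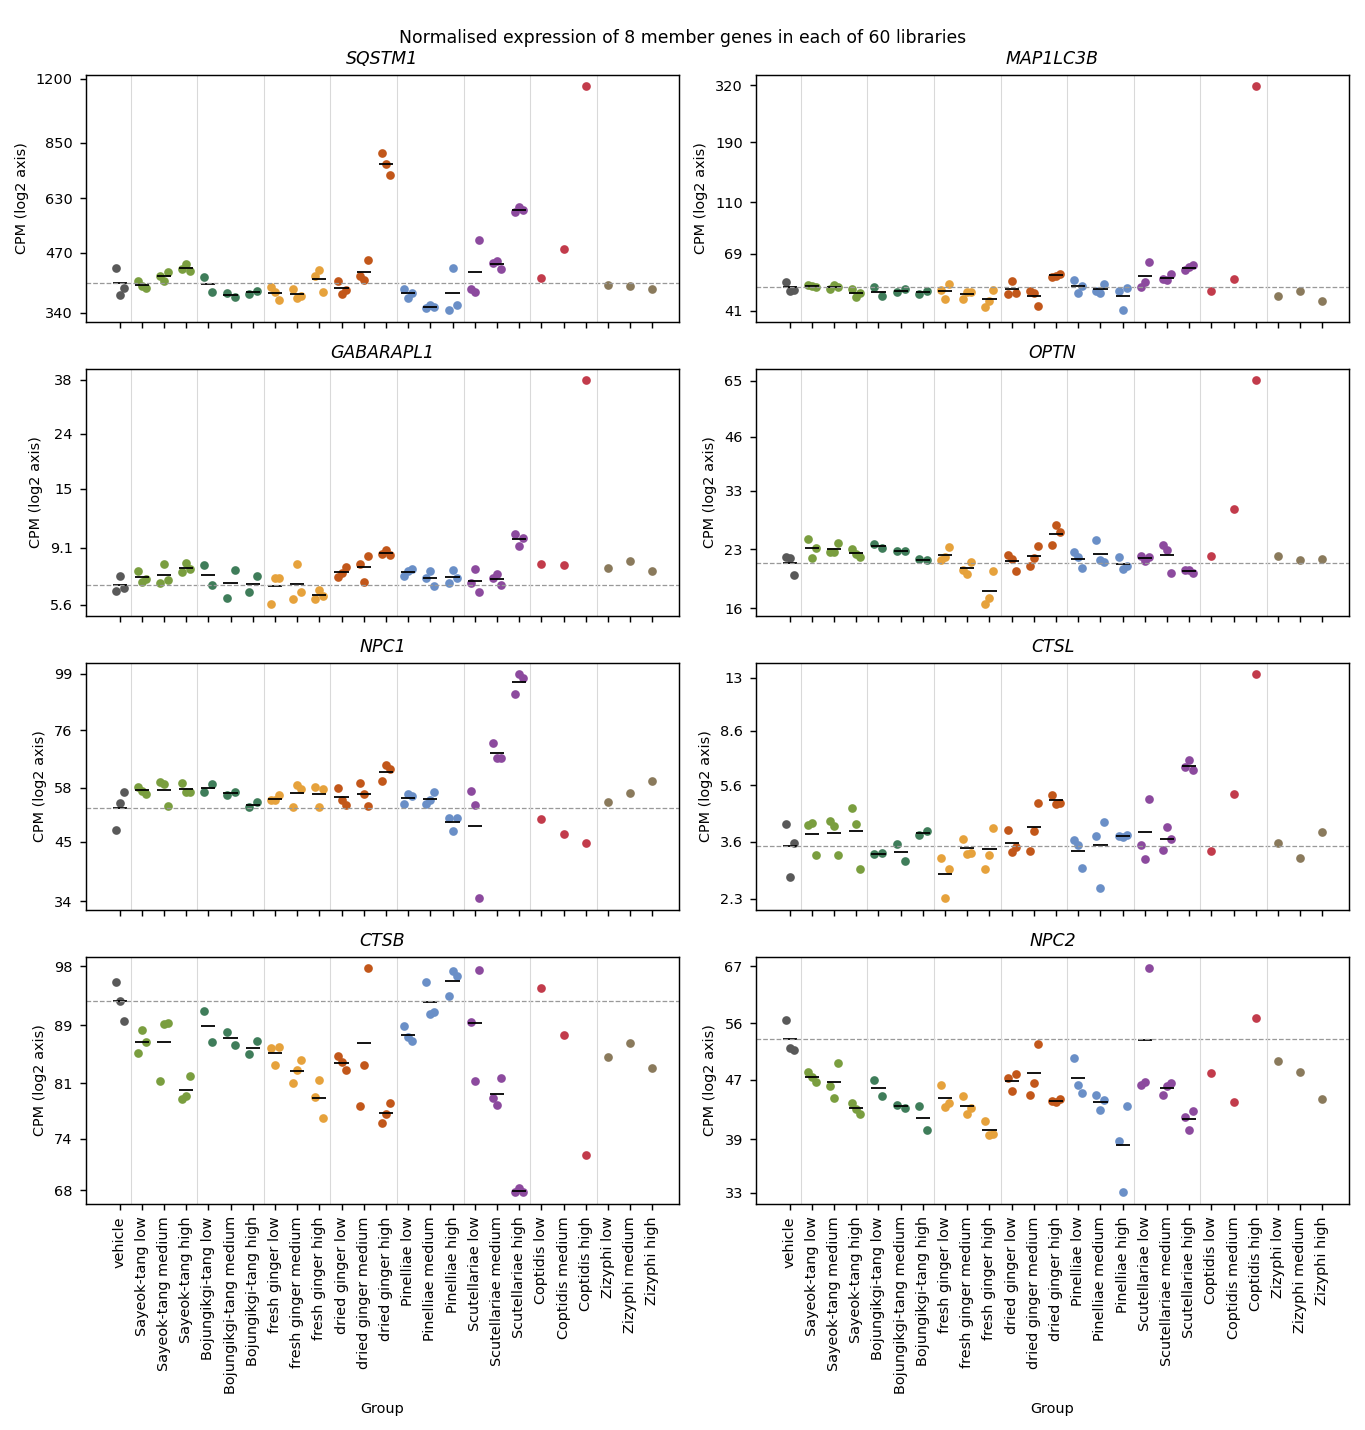
CPM (vertical, log2 axis) of each library (points) for 8 members in vehicle and in each extract and dose (horizontal), with group means as short lines and the vehicle mean dashed. Among replicated groups SQSTM1 is highest in dried ginger high (713 to 803 CPM), and NPC1 and CTSL are highest in Scutellariae Radix high, where CTSB is lowest (67.8 to 68.3 CPM).

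CTSZ followed CTSB, with 296, 293 and 294 CPM in vehicle and 248, 231 and 229 CPM with high-dose Scutellariae Radix. The log2 fold change was −0.32 ± 0.06 against vehicle (edgeR adjusted p = 0.00017) and −0.27 ± 0.06 against the low dose, whose libraries held 275, 271 and 309 CPM. All high-dose libraries lay below both groups. Across all extracts and doses, 53 of 57 libraries held less CTSZ than every vehicle library. CTSD, the most abundant member, was 613, 607 and 621 CPM at the low dose of dried ginger and 843, 799.7 and 794 CPM at the high dose. That rise of 0.40 ± 0.08 (edgeR adjusted p = 0.00108) was within the extract. Vehicle, at 789.9, 725 and 686 CPM, lay below all high-dose libraries, but the difference of 0.15 ± 0.08 was not called (edgeR adjusted p = 0.243).

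NPC2, the lumenal partner that hands cholesterol to NPC1, was lower than vehicle in 5 of the 6 high-dose groups by the test. Vehicle held 56.7, 51.9 and 51.5 CPM, and high-dose Scutellariae Radix 41.9, 40.2 and 42.5 CPM. High-dose Pinelliae Tuber held 38.7, 33 and 43.2 CPM, and high-dose fresh ginger 41.3, 39.5 and 39.6 CPM. No library of these groups reached the vehicle range.

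The log2 changes of NPC2 were −0.48 ± 0.08 with Pinelliae Tuber (edgeR adjusted p = 0.000295, or −0.33 without the libraries that stood apart), −0.41 ± 0.08 with fresh ginger, −0.36 ± 0.08 with Scutellariae Radix, −0.31 ± 0.08 with Sayeok-tang and −0.28 ± 0.08 with dried ginger. Within code sets it fell from low to high dose with Scutellariae Radix (−0.35 ± 0.08, or −0.17 and still called without the libraries that stood apart, but lost at an edgeR adjusted p of 0.112 without Scutellariae Radix low 3 alone) and with Pinelliae Tuber (−0.30 ± 0.08, edgeR adjusted p = 0.0475). With the replicate block, the latter had an edgeR adjusted p of 0.0508, and it was also lost without Pinelliae Tuber high 2 or any low-dose library (adjusted p up to 0.796). The dried ginger call was lost without vehicle 1 or any high-dose library, and that of Sayeok-tang without vehicle 1, vehicle 2 or any high-dose library (edgeR adjusted p up to 0.137 and 0.224). NPC1 and NPC2, which act in the same step of cholesterol export, moved in opposite directions with Scutellariae Radix.

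NEU1, the lysosomal sialidase, and GLA, alpha-galactosidase A, both rose with high-dose Scutellariae Radix. NEU1 was 56.6, 55.7 and 54.8 CPM in vehicle, 68.7, 71.4 and 75.0 CPM with Scutellariae Radix, 50.6, 46.6 and 44.9 CPM with fresh ginger and 41.5, 51.9 and 44.0 CPM with Pinelliae Tuber. The first group lay above and the other 2 lay below all vehicle libraries. GLA was 39.0, 34.8 and 34.3 CPM in vehicle, 49.2, 49.9 and 47.9 CPM with Scutellariae Radix and 42.4, 44.8 and 44.4 CPM with dried ginger, with both treated groups above vehicle.

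The change of NEU1 was 0.37 ± 0.07 with Scutellariae Radix (edgeR adjusted p = 0.000131), −0.23 ± 0.07 with fresh ginger and −0.28 ± 0.07 with Pinelliae Tuber, all against vehicle. GLA rose by 0.44 ± 0.08 with Scutellariae Radix and 0.29 ± 0.08 with dried ginger. Against its own low dose, GLA rose by 0.30 ± 0.08 with dried ginger. The NEU1 calls were lost without vehicle 1 for both fresh ginger and Pinelliae Tuber, among others (edgeR adjusted p up to 0.191 and 0.0998). Those of GLA with dried ginger were lost without high 2 or high 3, among others (edgeR adjusted p up to 0.0951). LIPA, the acid lipase that frees cholesterol and fatty acids, rose against vehicle with both Scutellariae Radix (0.34 ± 0.07) and dried ginger (0.30 ± 0.07), but neither extract differed from its low dose by the test. Vehicle LIPA, at 31.0, 33.1 and 34.6 CPM, was below 21 of the 24 other group means.

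GAA and GRN also fell with high-dose Scutellariae Radix. GAA was 4.51, 4.27 and 4.22 CPM in vehicle and 3.65, 3.16 and 2.86 CPM with the extract, without overlap, a change of −0.43 ± 0.14 (edgeR adjusted p = 0.0171). GRN was 288, 305 and 288 CPM in vehicle and 245, 240.0 and 243 CPM with the extract, a change of −0.27 ± 0.10 (edgeR adjusted p = 0.0432). Leaving out any 1 of the 6 libraries ended the GRN call, and leaving out vehicle 1, Scutellariae Radix high 2 or high 3 ended that of GAA (edgeR adjusted p up to 0.127 and 0.113).

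Between high and low dose, Scutellariae Radix gave 7 higher members (beside 10.7% of all genes) and 6 lower (beside 11.7%). Without the libraries that stood apart these were 10 and 7, beside 1728 and 1695 of 16697 genes. A fit with only the 6 high-dose and low-dose libraries, among them the low-dose library that stood apart, called no member. Of all genes, 310 of 14913 were called in that fit. Dried ginger gave 4 higher (SQSTM1, CTSD, GLA and OPTN, beside 2.3%) and none lower (beside 2.04%). Without the libraries that stood apart it gave 9 and none, beside 935 and 860 of 16697 genes. Fresh ginger gave 1 lower, OPTN (beside 0.489% in either direction). Without those libraries it gave 5 lower, beside 245 of 16697 genes. Pinelliae Tuber gave 2 lower, LIPA and NPC2 (beside 1.78% in either direction). Without the libraries that stood apart it gave 0 higher and 2 lower, beside 44 and 86 of 16697 genes. LIPA was 33.7, 29.4 and 35.1 CPM at its high dose and 40.5, 37.3 and 39.3 CPM at its low dose, a change of −0.25 ± 0.07 that became −0.19, and not called, without the libraries that stood apart.

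Extracts of the same code set were compared directly at the high dose, in 3 pairs with adjustment over all genes within each pair. Fresh ginger had 9 members lower than dried ginger (beside 1.63% of all genes) and none higher (beside 0.626%). Without the libraries that stood apart, none of which belongs to either ginger, these were 15 and none. Among all genes, 687 of 16697 were then lower and 332 higher, against 274 and 105 of 16763 with all libraries. Both are 70% ethanol extracts of ginger rhizome, one named for the fresh and one for the dried drug. SQSTM1 differed most, by −0.89 ± 0.07 (edgeR adjusted p = 6.24e-12), followed by WIPI1 (−0.58 ± 0.11, with 5.28, 4.51 and 5.37 CPM against 6.74, 7.74 and 8.11 CPM), OPTN (−0.51 ± 0.07), GABARAPL1 (−0.51 ± 0.10) and CTSD (−0.45 ± 0.08). NEU1, MAP1LC3B, PSAP and LIPA were the other 4. The MAP1LC3B difference (−0.31 ± 0.07) was lost without fresh ginger high 1, and that of LIPA (−0.24 ± 0.07) without 5 of the 6 libraries in turn (edgeR adjusted p up to 0.0944 and 0.413).

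CTSB and CTSZ, which were lower than vehicle with dried ginger, were not called between the gingers. The CTSZ call with dried ginger (−0.20 ± 0.06 against vehicle) was lost without vehicle 1, vehicle 2 or any high-dose library (edgeR adjusted p up to 0.0932). For CTSB the difference was 0.04, with an interval of 2 SE from −0.08 to 0.15, and for CTSZ 0.08, from −0.04 to 0.21. The change from low to high dose also differed between the gingers for 3 members (interaction, fresh minus dried): SQSTM1 by −0.86 ± 0.10, WIPI1 by −0.70 ± 0.16 and OPTN by −0.57 ± 0.10, beside 0.501% of all genes in that direction. Without the libraries that stood apart, 8 members passed, beside 259 of 16697 genes in that direction. The WIPI1 interaction was lost when fresh ginger high 2, fresh ginger low 3, dried ginger low 2 or dried ginger high 3 was left out (edgeR adjusted p up to 0.0939).

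Scutellariae Radix and Pinelliae Tuber, both ethanol extracts, differed in 18 members at the high dose. Of these, 10 were higher with Scutellariae Radix (beside 9.9% of all genes) and 8 lower (beside 12.9%). Without the libraries that stood apart, 12 were higher and 5 lower, beside 1614 and 1613 of 16697 genes. NPC1 differed by 0.95 ± 0.09 (edgeR adjusted p = 1.47e-11), NEU1 by 0.65 ± 0.07, SQSTM1 by 0.65 ± 0.07, WIPI1 by 0.61 ± 0.11 and GLA by 0.51 ± 0.08. LAMP2 differed by 0.33 ± 0.08, or 0.17 without the libraries that stood apart. On the lower side, CTSB differed by −0.49 ± 0.06 and CTSZ by −0.39 ± 0.06. GRN differed by −0.51 ± 0.10 with all libraries and by −0.21 without those that stood apart. Its call was kept with each library left out in turn (edgeR adjusted p up to 0.0246). The calls of ULK1 and TFEB rested on Pinelliae Tuber high 2 and were lost without the libraries that stood apart.

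In the interaction of dose with extract, 8 members changed more in the upward direction with Scutellariae Radix than with Pinelliae Tuber (beside 4.24% of all genes). In the downward direction 6 did (beside 5.34%). Without the libraries that stood apart these were 9 and 3, beside 744 and 758 of 16697 genes. NPC1 had the largest value, 1.14 ± 0.12 (edgeR adjusted p = 5.39e-09, or 0.92 without those libraries). NEU1 and SQSTM1 each gave 0.48 ± 0.10, which became 0.70 and 0.73. CTSB gave −0.52 ± 0.08, or −0.44.

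Between the 2 water extracts, Sayeok-tang and Bojungikgi-tang, no member was called at the high dose (beside 0.00597% of all genes). In edgeR 2 members had an unadjusted p below 0.05, and DESeq2 called none. The 2-SE intervals of the member differences ran from −0.59 (GAA) to 0.42 (GABARAPL1), so differences outside that range were not covered by any interval. Their interaction with dose gave no call among the members or among all genes (0%), with 0 members at an unadjusted p below 0.05 and none by DESeq2.

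**Figure D3:**
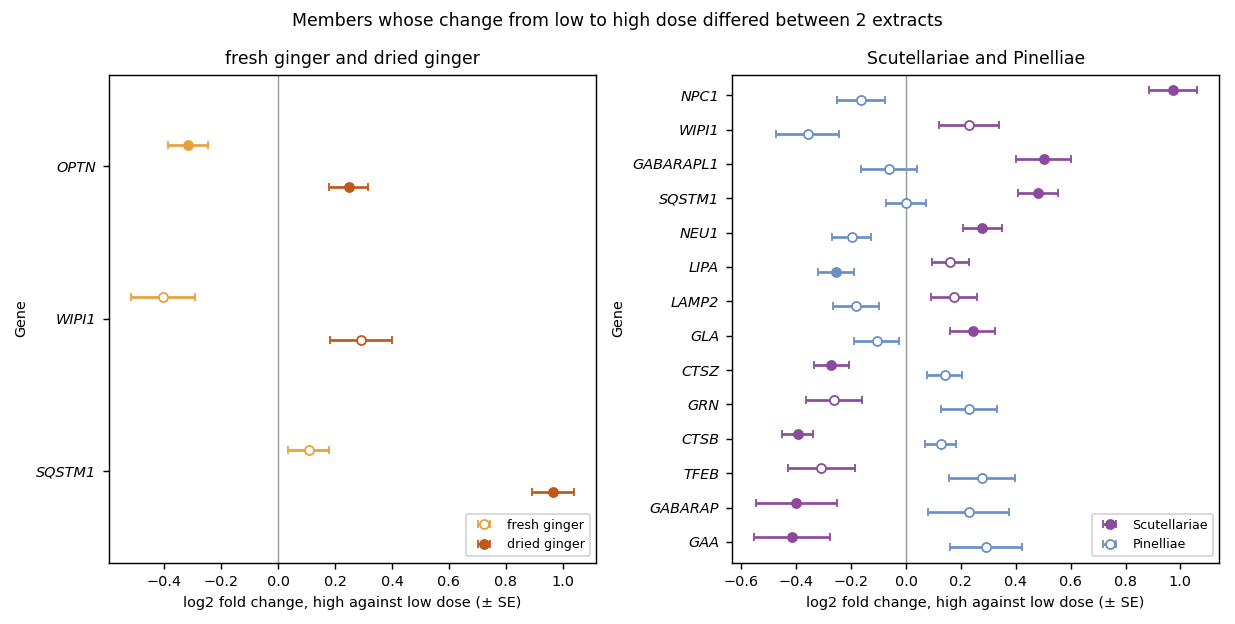
Log2 fold change of high against low dose (horizontal, ± SE) for the members (vertical) with a called interaction, in both extracts of a pair, with filled points for called changes. SQSTM1 is at 0.97 in dried ginger and uncalled in fresh ginger, and NPC1 is at 0.97 in Scutellariae Radix and uncalled in Pinelliae Tuber.

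Autophagy factors were then set against lysosomal genes as 2 mean levels. For each library, the mean over the 14 autophagy factors and over the 17 lysosomal genes of log2(CPM + 0.5) was taken relative to the vehicle mean. In the replicated high-dose groups the autophagy mean ran from −0.10 (fresh ginger) to 0.12 (dried ginger), and the lysosomal mean from −0.15 (fresh ginger) to 0.06 (dried ginger). The 2 class means therefore shared their lowest and highest group. Their difference, autophagy minus lysosomal, was highest for Sayeok-tang, at 0.07 ± 0.00507 (SD, n = 3). It was 0.06 ± 0.0111 (n = 3) for dried ginger, 0.05 ± 0.0388 (n = 3) for fresh ginger and 0.04 ± 0.0246 (n = 3) for Scutellariae Radix. Pinelliae Tuber gave 0.02 ± 0.0765 (n = 3) and Bojungikgi-tang 0.01 ± 0.0167 (n = 2).

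Vehicle libraries ranged from −0.02 to 0.01 on this difference, and the 18 replicated extract groups had means from 0.01 to 0.07. The medians of the classes gave −0.04 in place of 0.06 for dried ginger, and the sign of that difference thus depended on the summary. Calls against vehicle in the autophagy class were 7 higher and 1 lower over the 6 high doses. Lysosomal genes gave 8 higher and 20 lower calls there, and TFE3 the remaining 1. Among all genes at these doses, Bojungikgi-tang had 0.626% called in either direction. The other extracts had 1.26% to 11.5% called higher and 1.58% to 12.1% lower. These calls share the same vehicle libraries. NPC2, CTSB, CTSD, CTSA, CTSZ and HEXA lay below the vehicle mean in at least 20 of the 24 other groups.

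**Figure D4:**
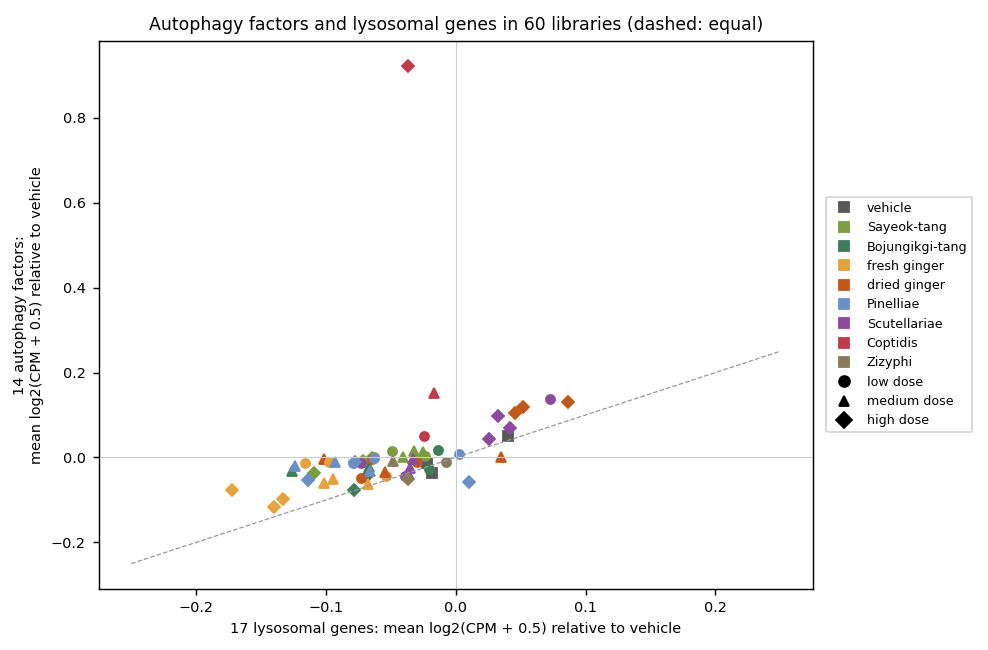
Mean log2 level relative to vehicle of the 17 lysosomal genes (horizontal) against the 14 autophagy factors (vertical), 1 point per library. Most libraries lie along the diagonal within about 0.2 of vehicle, and high-dose Coptidis Rhizoma lies alone at 0.92 on the autophagy axis and −0.04 on the lysosomal axis.

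Coptidis Rhizoma separated the 2 classes. The extract has 1 library per dose, so no test was possible and the values compare single libraries with the vehicle mean. At 320 µg/mL the autophagy mean was 0.92 and the lysosomal mean −0.04, a difference of 0.96. The difference was 0.17 at 64 µg/mL and 0.08 at 12.8 µg/mL. With class medians, the high-dose difference was 0.68.

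In that high-dose library, 7 members had a log2 ratio above 1 (beside 6.15% of all genes tested) and none a ratio below −1 (beside 6.09%). MAP1LC3B was 318 CPM, against 49.3 to 53.3 CPM in vehicle, with a log2 ratio of 2.64. Its 8366 counts give an exact Poisson interval (95%, counting error only) of 311 to 325 CPM. GABARAPL1 was 38.0 CPM, against 6.28 to 7.13 CPM in vehicle, a ratio of 2.43.

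ULK1 was 84.1 CPM (ratio 1.87), OPTN 65.4 CPM (1.61), SQSTM1 1156 CPM (1.54) and NBR1 215 CPM (1.09). These 6 are autophagy factors, 3 of them receptors. The seventh, CTSL, was the only lysosomal gene among them, at 13.4 CPM (1.83). All 7 were higher there than in any other library. The same number passed with DESeq2 size factors and with total counts in place of TMM scaling.

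The remaining autophagy factors among the members ranged from −0.06 (ATG9A) to 0.55 (WIPI1) in this library. Outside the set, some ATG genes passed a ratio of 1, among them ATG2B (1.19) and ATG4A (1.15), and the counts are given below. TFEB and TFE3 had ratios of 0.80 and 0.74. On the lysosomal side GLA was lowest, at 20.4 CPM and a ratio of −0.80, followed by MCOLN1 (−0.49), HEXA (−0.48) and CTSZ (−0.46). Beside these values, 4 of the 12 colon epithelial markers (GPA33, KRT19, CDX1 and VIL1) had a ratio below −1, and mitochondrial genes held 3.44% of counts (15.2% in the low-dose library). The part of these in the result was not tested.

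At 64 µg/mL, ULK1 was 45.0 CPM with a ratio of 0.97, CTSL 5.23 CPM (0.54) and OPTN 29.5 CPM (0.47), while MAP1LC3B, at 54.5 CPM (0.10), lay close to vehicle. ULK1 passed a ratio of 1 there with total-count scaling. The order of responses thus differed between the medium and the high dose. Zizyphi Fructus, of the same code set and also with 1 library per dose, had no member beyond a ratio of 1 in either direction at any dose. Its 3 largest at the high dose were GABARAPL2 (−0.32), TFEB (−0.31) and PSAP (−0.28).

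**Figure D5:**
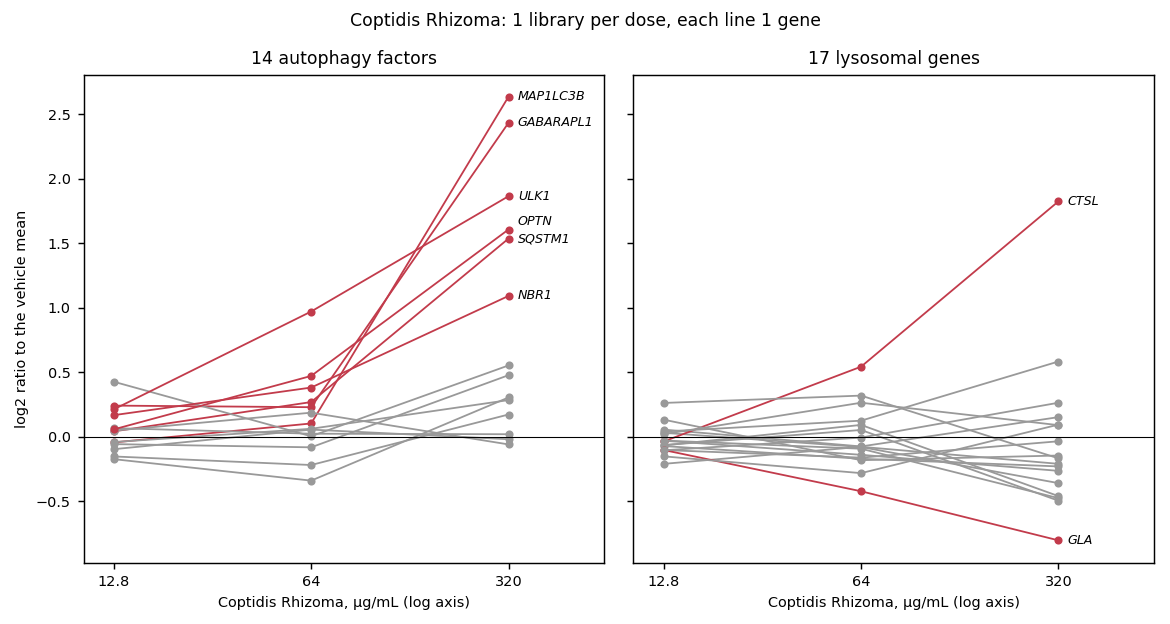
Log2 ratio to the vehicle mean (vertical) of the 14 autophagy factors (left) and 17 lysosomal genes (right) in the single Coptidis Rhizoma library of each dose (horizontal, log axis), with named lines beyond 0.7 in size. MAP1LC3B and GABARAPL1 reach 2.64 and 2.43 at 320 µg/mL, whereas the lysosomal genes other than CTSL stay between −0.80 and 0.58.

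Genes of the same pathways outside the set were counted against vehicle at the high dose, from lists chosen by function. Of 13 other autophagy receptors and their regulators, high-dose dried ginger raised 4 and lowered none. They included CCPG1, an endoplasmic reticulum receptor (0.59 ± 0.07), and TBK1, a kinase that phosphorylates OPTN (0.38 ± 0.07). Scutellariae Radix raised TBK1 (0.38 ± 0.07) and CCPG1 (0.35 ± 0.07). Of 31 other genes of the autophagy machinery, Scutellariae Radix raised 4 and lowered 1, and dried ginger raised 1, VMP1 (0.29 ± 0.06), and lowered 1, MAP1LC3A.

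The share of all genes called higher and lower against vehicle, given above, was 11.5% and 12.1% for Scutellariae Radix, 6.79% and 6.34% for dried ginger and 2.99% and 3.36% for fresh ginger, and the counts of these lists are read beside it. Of 38 other lysosomal hydrolases tested, Scutellariae Radix raised 3 and lowered 7, dried ginger raised 3 and lowered 6, and fresh ginger lowered 5. FUCA1, a fucosidase, fell with all 3, by 0.47 ± 0.05, 0.30 ± 0.05 and 0.36 ± 0.05 against vehicle, and by 0.57, 0.32 and 0.33 from low to high dose. IDS, the iduronate sulfatase, rose with Scutellariae Radix (0.53 ± 0.06) and dried ginger (0.33 ± 0.06). Among 20 subunits of the proton pump (V-ATPase) tested, ATP6V1B1 fell by 1.75 ± 0.13 with Scutellariae Radix, 0.93 ± 0.12 with dried ginger and 0.62 ± 0.12 with fresh ginger. From low to high dose it fell by 1.65, 0.82 and 0.58. Of the other 19 subunits, Scutellariae Radix raised 3 and lowered 1 against vehicle. Of 9 genes of mannose 6-phosphate sorting, which routes hydrolases to the lysosome, Scutellariae Radix raised 2 (M6PR and IGF2R, the receptors) and lowered 2 (GNPTG and NAGPA).

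Of 34 tested genes of mTORC1 and nutrient signalling, which controls ULK1 and TFEB, Scutellariae Radix raised 4 and lowered 9. Dried ginger raised 4 and lowered 4. The shares of all genes were 11.5% and 12.1% for Scutellariae Radix and 6.79% and 6.34% for dried ginger. DDIT4, an mTORC1 inhibitor, rose by 1.07 ± 0.09 and 0.59 ± 0.09 with these extracts and fell by 0.47 ± 0.10 with Pinelliae Tuber. SESN1, a leucine-sensing sestrin, fell by 0.88 ± 0.08 and 0.57 ± 0.08. In the high-dose Coptidis Rhizoma library, DDIT4 and SESN2 had log2 ratios of 3.74 and 3.46, and the receptors CCPG1 and CALCOCO2 2.24 and 1.72. Of the 31 machinery genes, 6 had a ratio above 1 there, with MAP1LC3A highest at 2.01. Of the 38 hydrolases, 2 had a ratio above 1 and 6 below −1, with GM2A lowest at −1.62.

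Several members share genomic positions with other genes, and the strand setting of the counting is not given, so reads of overlapping genes cannot be told apart. SQSTM1 overlaps MRNIP on the other strand, whose mean count was 844 against 10508 for SQSTM1. MRNIP rose by 0.47 with dried ginger and 0.41 with Scutellariae Radix. NPC1 overlaps RMC1, which rose by 0.34 with Scutellariae Radix, and other overlaps concern LIPA, MAP1LC3B, BECN1, ATG5 and MCOLN1.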

How the data were processed

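RNA of 60 HT29 libraries was analysed from expected counts per gene that the authors deposited, made from total RNA with a directional library kit per the labels' protocols. Per the submitters' processing notes, RSEM 1.3.3 and STAR 2.7.3a were used with hg38, beside FastQC 0.11.9 and Trim Galore 0.6.5. The sources used here do not give the annotation release or the strand setting. The table holds 210 further columns of other samples that were not used. Expected counts were rounded to whole numbers, since 90.0 to 92.1% of the values in a library were whole. Gene symbols, positions and exon lengths came from GENCODE 29, which matched 57055 of 60675 identifiers.

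CPM values were scaled by TMM over all 60 libraries. The main test was edgeR 4.0.16 (R 4.3.3): filterByExpr, TMM, a trended dispersion without tagwise values, robust quasi-likelihood fits and Benjamini-Hochberg adjustment at 0.05 over 16763 genes. It covered 54 libraries in 19 groups (35 residual degrees of freedom, common biological coefficient of variation 0.0855). Errors of fold changes are standard errors, and the fit assumes that groups share their spread. Coptidis Rhizoma and Zizyphi Fructus, with 1 library per dose, were given as log2 ratios to the vehicle mean with a pseudocount of 0.5 CPM. The fit was tested on simulated data. Alternatives were each library left out in turn, the replicate number as a block, no libraries that stand apart, fits restricted to the compared groups, all genes with a count, DESeq2 1.42.0, and edgeR with DESeq2's size factors.

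Replicate numbers paired libraries only for Pinelliae Tuber low against vehicle, where the correlations of deviations over 3 pairs were 0.151 to 0.504, and the block changed no call there. Members and lists were chosen with earlier results of these data known. All members are accounted for. Per-library values were given for up to 4 called members per direction and comparison with the smallest p, and for members called in 3 or more comparisons. Up to 3 called genes per direction were named from each other list, and for single libraries the members with a log2 ratio over 1 in size or else the 3 largest. Depth limits precision most for GAA, CTSL and WIPI1, the members with the lowest levels.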

Additional observations from a re-analysis of the deposited data

Results flagged for a closer look

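The change from low to high dose differed between the gingers (fresh minus dried) for 3 members in a test of the difference itself, edgeR's interaction term with Benjamini-Hochberg adjustment. SQSTM1 had an interaction of −0.86 (adjusted p = 5.67e-07), OPTN −0.57 (adjusted p = 0.000534) and WIPI1 −0.70 (adjusted p = 0.0155). The WIPI1 value was lost in 4 fits with 1 library left out (edgeR adjusted p up to 0.0939).

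The same test of Scutellariae Radix against Pinelliae Tuber flagged 14 members. NPC1 had the largest value, 1.14, which was 0.92 without the libraries that stand apart. Higher interactions were also found for LIPA (0.42), WIPI1 (0.59), GABARAPL1 (0.56), SQSTM1 (0.48), NEU1 (0.48), LAMP2 (0.36) and GLA (0.35). Lower interactions were found for CTSB (−0.52), CTSZ (−0.41), GAA (−0.71), TFEB (−0.59), GRN (−0.49) and GABARAP (−0.63). Without the libraries that stand apart, LAMP2 was 0.13, GRN −0.18, TFEB −0.18, GAA −0.56 and GABARAP 0.04, and these 5 were no longer called. With 1 library left out in turn, the GLA interaction was lost in 9 fits (edgeR adjusted p up to 0.143) and that of WIPI1 without Scutellariae Radix high 3 (edgeR adjusted p = 0.0750). Among the lower interactions, those of GAA, GRN, TFEB and GABARAP were also lost in such fits (edgeR adjusted p up to 0.108, 0.209, 0.184 and 0.419).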

How the results depend on the processing

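Over 94 named values of 23 members, DESeq2 and its size factors in edgeR kept every direction and call. The call was lost for 17 without the low-count filter, for 43 in fits of the compared groups alone and for 8 without the libraries that stand apart. There 1 more changed sign, the GABARAP interaction of Scutellariae Radix against Pinelliae Tuber, from −0.63 to 0.0368. With each library left out in turn, 53 of the 94 kept their call and 41 lost it in at least 1 fit. The replicate block ended 3 calls (NPC2 in Pinelliae Tuber high against low, and GABARAP in Scutellariae Radix high against low and in the interaction). Counts with the block moved to 1 for Pinelliae Tuber high against low and to 1 for the 6 low doses.

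Counts of called members against vehicle at the high dose moved as follows, where they moved by over 1.5 times. Sayeok-tang (2) gave 1 without the filter, 1 in fits of the compared groups alone and 5 without the libraries that stand apart, and 0 to 2 with a library left out. Bojungikgi-tang (0) gave 1 by DESeq2, 1 without the filter and 3 without those libraries. Fresh ginger (7) gave 4 without the filter, and 1 to 8 with a library left out. Dried ginger (9) gave 16 without the libraries that stand apart, and 5 to 8 with one left out. Pinelliae Tuber (4) gave 0 in fits of the compared groups alone, and 1 to 8. Scutellariae Radix (15) gave 11 to 15. Among all genes, fits of the compared groups alone called 417 of 15105 for Sayeok-tang and 0 of 15212 for Pinelliae Tuber. Without the filter, 1016, 367 and 1567 of 34326 genes were called for Sayeok-tang, Bojungikgi-tang and fresh ginger. DESeq2 called 180 of 17685 for Bojungikgi-tang.

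Between high and low dose, Sayeok-tang (1) gave 0 without the filter, 2 in fits of the compared groups alone and 0 with any library left out. Bojungikgi-tang (0) gave 2 in fits of the compared groups alone. Fresh ginger (1) gave 0 without the filter, 0 in fits of those groups alone, 5 without the libraries that stand apart, and 0 to 1. Dried ginger (4) gave 11 and 9 under the last 2 settings, and 2 to 4. Pinelliae Tuber (2) gave 4 by DESeq2, 0 in fits of the compared groups alone, and 0 to 12. Scutellariae Radix (13) gave 0 in fits of the compared groups alone, and 9 to 13. Among all genes, those fits called 519 of 14959 for Sayeok-tang, 323 of 15330 for Bojungikgi-tang and 214 of 14922 for fresh ginger. They called 1832 of 15148 for dried ginger, 0 of 15204 for Pinelliae Tuber and 310 of 14913 for Scutellariae Radix. Without the filter, 124 and 140 of 34326 genes were called for Sayeok-tang and fresh ginger. DESeq2 called 684 of 11034 for Pinelliae Tuber. Among the pairs, the water extracts (0) gave 1 in fits of the compared groups alone. The gingers (9) gave 15 without the libraries that stand apart, and 7 to 8 with one left out. Scutellariae Radix against Pinelliae Tuber (18) gave 6 in fits of the compared groups alone, and 14 to 22. The ginger interaction (3) gave 7 in fits of the compared groups alone and 8 without those that stand apart, and 2 to 3, and the other (14) gave 1 in fits of the compared groups alone, and 10 to 16. For these pairs, fits of the compared groups alone called 14 of 15497 genes for the water extracts. They called 379 of 14981 for Scutellariae Radix against Pinelliae Tuber, 320 of 15455 for the ginger interaction and 128 of 15589 for the other.

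The medium doses (7 in all) gave 16 by DESeq2, 11 in fits of the compared groups alone, 22 without the libraries that stand apart, and 0 to 11. The low doses (2) gave 10, 4, 11 and 0 to 8 in the same order, and 4 without the filter. Among all genes, fits of the compared groups alone called 5 to 2464 at each medium dose and 0 to 1059 at each low dose. Without the filter, 378 to 1482 of 34326 genes were called at each low dose. The difference between autophagy and lysosomal means became 0.12 for Sayeok-tang, 0.0407 for Bojungikgi-tang, −0.036 for dried ginger and 0.0870 for Scutellariae Radix with medians, and for Sayeok-tang 0.0571 to 0.0712 with a library left out. The high-dose Coptidis Rhizoma difference was 0.68 with medians. Fits of the compared groups alone also used fewer libraries. Without the libraries that stand apart, calls among all genes rose in each comparison with vehicle. The cause of these moves was not tested.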
